A study of Mus musculus with 3 samples.

Results

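The transcripts described here are 10 of the 32227 genes counted in single nuclei of mouse lumbar dorsal root ganglia (DRG), the ganglia that hold the cell bodies of sensory neurons. Of these, 5 are erythroid: the haemoglobin genes Hba-a1, Hba-a2, Hbb-bs and Hbb-bt and the heme synthesis gene Alas2. The other 5 are granulocyte genes: S100a8, S100a9, Ngp, Camp and Ltf. They were picked by symbol with earlier readouts of these data known, as transcripts best known from blood and marrow cells, so their levels by fraction and by cell class are given as a description without a test. All 10 had UMIs in each library.

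Nuclei of C57BL/6 ganglia from lumbar levels L3 to L5 were profiled by PIP-seq, in which nuclei are caught with barcoded beads in droplets and each captured RNA is counted once by its unique molecular identifier (UMI). The adult group (3 months) had 1 library and the aged group (21 months) had 2 libraries. The labels name no injury, drug or transgene in any of them. The labels do not say how many mice each library pooled, the series' design text gives the aged mice as 12 months old, and the age in the sample labels was used. Since the adult group is a single library, whatever else set it apart from the aged libraries cannot be told apart from age. The p-values rest on a spread between these libraries that is pooled across genes and may be technical. They do not measure the spread between mice.

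Haemoglobin is the oxygen carrier of red cells, built from α and β chains with heme, and a mammalian red cell loses its nucleus while its last haemoglobin messages remain in the cytoplasm. Alas2 is the erythroid enzyme that starts heme synthesis. Granulocytes, mostly neutrophils, are loaded while in the marrow with granule proteins, among them the products of Ngp, Camp (cathelicidin) and Ltf (lactoferrin), and they carry the calcium-binding pair S100A8 and S100A9 in the cytoplasm. Blood in the vessels of a dissected ganglion, and any marrow taken along from the vertebral column, are places where such cells are found.

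The haemoglobin genes lie in 2 clusters. In the GRCm38 build, Hba-a1 (chr11:32283511-32284465) and Hba-a2 (chr11:32296489-32297298) lie on the plus strand, and Hbb-bs (chr7:103826534-103828096) and Hbb-bt (chr7:103812524-103813996) on the minus strand. Hba-a1 and Hba-a2 transcripts were identical at 537 of 538 aligned bases and Hbb-bs and Hbb-bt transcripts at 580 of 626, so the split of reads within each pair is uncertain. Alas2 (chrX:150547375-150570638, plus strand) overlaps Apex2 on the other strand, and whether the counting used strand is not given in the sources used here. S100a8 (chr3:90668978-90670035, plus) and S100a9 (chr3:90692632-90695721, minus) are neighbours on chromosome 3. Ngp (chr9:110419747-110423012, plus), Camp (chr9:109847379-109849617, minus) and Ltf (chr9:111019271-111042767, plus) all lie on chromosome 9.

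The 120 bases before the RefSeq start site (GRCm38.p6, coding strand, 5′ to 3′) are shown for the erythroid members and the S100 pair, because they let the copies be compared and show which short motifs they share. Capitals mark matches on either strand to the letters AGATAA, which erythroid transcription factors are known to bind, CCNCNCCC, which Krüppel-like factors bind, TTNCNNAA, which myeloid factors of the C/EBP family bind, the box named CCAAT, and the core element TATAAA with its variant spelled ATATAA. These core elements can overlap, and the match in Hbb-bt holds both.
Hba-a1, chr11:32283552-32283671, plus strand: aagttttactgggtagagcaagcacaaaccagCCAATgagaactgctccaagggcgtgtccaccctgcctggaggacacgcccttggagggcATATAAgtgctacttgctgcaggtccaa
Hba-a2, chr11:32296372-32296491, plus strand: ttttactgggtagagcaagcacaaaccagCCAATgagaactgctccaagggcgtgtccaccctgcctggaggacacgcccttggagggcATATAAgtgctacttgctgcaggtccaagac
Hbb-bs, chr7:103827929-103828048, minus strand: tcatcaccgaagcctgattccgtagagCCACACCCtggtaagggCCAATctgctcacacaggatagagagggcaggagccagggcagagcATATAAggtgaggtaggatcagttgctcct
Hbb-bt, chr7:103813924-103814043, minus strand: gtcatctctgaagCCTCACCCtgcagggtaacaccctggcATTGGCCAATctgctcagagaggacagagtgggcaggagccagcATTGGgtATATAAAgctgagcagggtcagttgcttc
Alas2, chrX:150547297-150547416, plus strand: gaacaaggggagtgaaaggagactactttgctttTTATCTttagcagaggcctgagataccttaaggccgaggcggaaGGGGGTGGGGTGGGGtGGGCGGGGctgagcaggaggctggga
S100a8, chr3:90668951-90669070, plus strand: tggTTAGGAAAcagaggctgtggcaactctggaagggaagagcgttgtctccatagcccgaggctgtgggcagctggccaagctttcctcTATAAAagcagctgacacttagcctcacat
S100a9, chr3:90695722-90695841, minus strand: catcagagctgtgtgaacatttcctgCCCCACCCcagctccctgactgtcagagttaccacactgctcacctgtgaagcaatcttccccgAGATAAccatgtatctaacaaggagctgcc

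The Hba-a1 and Hba-a2 promoters shared an identical run of 247 bases within the 250 bases before their starts, so these letters do not tell the copies apart, whereas the longest run shared by Hbb-bs and Hbb-bt was 14 bases. Within 250 bases, AGATAA was found in 4 of the 10 members (Hbb-bs, Alas2, S100a9 and Ltf) and in 9.99% of 32851 promoters. CCNCNCCC was found in 6 members and 45.9% of promoters, CCAAT in 6 and 33.8%, and TTNCNNAA in 7 and 36.8%. TATAAA was found in 3 members and 12.4% of promoters, and ATATAA in the 4 haemoglobin genes and 9.10%.

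Library totals were 167664164 UMIs (adult), 95647106 and 69045987 UMIs (aged). Nuclei were the barcodes that passed a minimum of more than 1000 genes, 11518 in the adult and 5130 and 2611 in the aged libraries, with a median of 3269, 4317.5 and 4900 UMIs. Barcodes of 10 to 99 UMIs, which hold too little RNA for a nucleus, were summed as free RNA (219344, 175627 and 233062 barcodes). At most 1 nucleus barcode was shared between any 2 libraries. Sex-linked transcripts did not match the labelled sex alone: all libraries are labelled male, and Xist stood at 1414, 844 and 929 CPM (UMIs of the gene for 1000000 UMIs of the sum) in nuclei beside Ddx3y at 20.6, 13.2 and 7.87. The other Y-linked genes read were lower: Uty at 2.73, 1.00 and 0.718 CPM, Kdm5d at 1.01, 0.591 and 0.611, and Eif2s3y at 0.0997, 0.0537 and 0.0266. The methods name aged mice as female in their list of animals and as both sexes for explants. The male label thus stands against the Xist level in each library and, for the aged mice, against that list. The sex of the mice in these libraries is therefore uncertain.

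The haemoglobin genes were found mainly outside nuclei. Nuclei held 53.8, 58.4 and 54.5% of all UMIs of the adult, first aged and second aged library but 7.01, 6.74 and 7.33% of the UMIs of the 4 haemoglobin genes, a share that hardly varied between libraries. The 4 genes together stood at 2181 (adult), 3329 and 1654 CPM (aged) in free RNA and at 204, 241 and 144 CPM in nuclei, so that the level in nuclei was 0.0933, 0.0724 and 0.0871 of that in free RNA. The adult library lay between the aged ones in both fractions.

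Hba-a1, 1 of the α-globin copies, stood at 135 CPM in adult free RNA and at 375 and 205 CPM in aged free RNA, and at 15.1, 28.4 and 20.4 CPM in nuclei. Hba-a2, the other copy, stood at 575, 967 and 504 CPM in free RNA and 61.3, 76.3 and 45.7 in nuclei. Hba-a1 was therefore lowest in the adult library in both fractions, while Hba-a2 was lowest in the second aged library. The β-globin Hbb-bs stood at 1214, 1635 and 750 CPM in free RNA and 104, 108 and 59.4 in nuclei. Hbb-bt, its neighbour, stood at 258, 352 and 195 CPM in free RNA and 23.0, 28.1 and 18.5 in nuclei. Both β-globins were highest in the first aged library and lowest in the second.

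Alas2 was the erythroid member with the highest level in nuclei relative to free RNA. It stood at 10.4, 17.6 and 12.8 CPM in free RNA and at 2.30, 4.40 and 5.40 CPM in nuclei, a ratio between 0.222 and 0.423. Nuclei held between 13.4 and 23.6% of its UMIs.

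All 5 granulocyte members were lowest in free RNA of the adult library and highest in that of the second aged library. The adult and aged values thus did not overlap, which can easily arise by chance with a lone adult library. The share of all genes without such overlap is not given here. The test given further on, a different measure, called 17.3% of all genes in this fraction. S100a8 stood at 14.8 CPM (adult) against 44.5 and 103 CPM (aged). S100a9, its partner in the calprotectin dimer, stood at 26.8, 98.5 and 270 CPM, so the second aged library was 10.1 times the adult and 2.75 times the first aged library. The granule genes followed the same order. Ngp stood at 6.32, 15.4 and 42.1 CPM. Camp stood at 4.05, 14.1 and 36.4 CPM. Ltf stood at 6.41, 13.9 and 27.5 CPM, and its second aged value was 4.29 times the adult one, the smallest such ratio of the 5.

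In nuclei the granulocyte levels were lower and lay closer together. S100a8 stood at 2.25, 3.97 and 6.88 CPM, S100a9 at 4.96, 8.04 and 15.2, Ngp at 2.02, 3.06 and 5.34 and Camp at 1.04, 1.74 and 2.82, all in the order of the free RNA. Ltf did not keep that order, with 3.29 CPM in the adult library between 2.20 and 4.31 in the aged libraries. Summed over the 5 genes, the level in nuclei divided by that in free RNA was 0.232 for the adult library against 0.102 and 0.0721 for the aged ones.

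**Figure D1:**
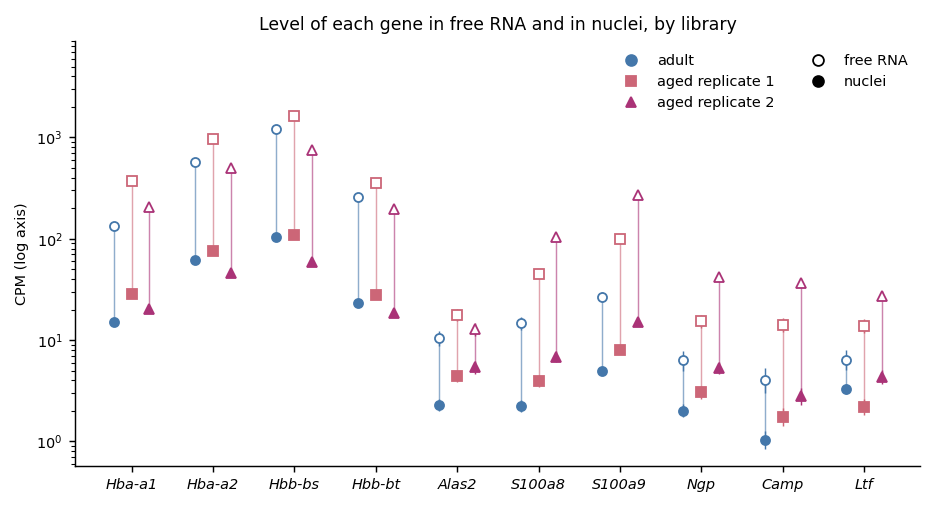
Level of each of the 10 transcripts (CPM, log axis) in free RNA (barcodes of 10 to 99 UMIs) and in nuclei (barcodes with more than 1000 genes), with a point for each library. The haemoglobin genes lie about an order of magnitude lower in nuclei than in free RNA, and the granulocyte genes are lowest in the adult library in free RNA.

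Plotted by barcode size, haemoglobin went from 1363, 1500 and 1028 CPM in barcodes of 1 to 9 UMIs to 3910, 5186 and 2674 CPM in barcodes from 300 to under 1000 UMIs. The granulocyte sum went from 39.6, 83.0 and 232 CPM to 94.3, 264 and 476 CPM over the same sizes, and Alas2 stood at 25.5, 39.5 and 40.5 CPM in the larger of them. Blood transcripts were thus not spread evenly over small barcodes, and a free RNA level depends on the sizes summed.

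**Figure D2:**
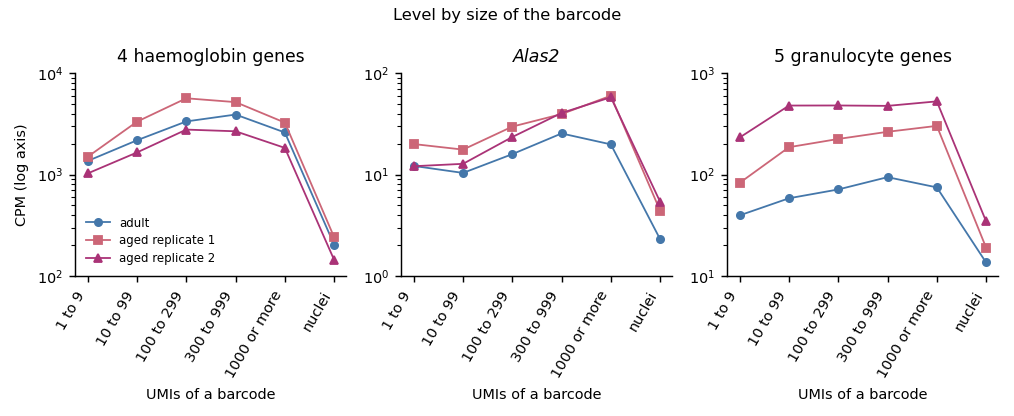
Level of the 4 haemoglobin genes, Alas2 and the 5 granulocyte genes (CPM, log axis) against the size of the barcode, from 1 to 9 UMIs up to nuclei, for the 3 libraries. Levels are higher in barcodes of 300 or more UMIs than in the smallest ones, and lowest in nuclei for all 3 sums.

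Some barcodes below the gene minimum carried so much of these transcripts that they stand apart. In the adult library 170 barcodes held 20 or more haemoglobin UMIs, against 239 and 94 in the aged libraries, and only 43, 79 and 41 of these were nuclei. The highest in the adult library had 4475 haemoglobin UMIs of 5523 in all (81.0%) from 670 genes. Most had no UMI of 14 other erythroid genes (among them Slc4a1 and Klf1) in the adult and first aged library (123 and 168), fewer in the second (42). Barcodes with 100 to 1000 genes and 3 or more of those erythroid genes, which can overlap with these, numbered 59, 58 and 109 and stood at 16844, 47014 and 14599 haemoglobin CPM. For granulocytes, 30, 46 and 49 barcodes of that size had 3 or more of 14 granulocyte genes other than the members (among them Elane, Mpo and Csf3r), and their summed granulocyte level was 16567, 15686 and 10958 CPM. The gene minimum therefore left out barcodes with the transcripts of both lineages.

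Nuclei were clustered without the 10 members and named from markers. A cluster of 26, 37 and 48 nuclei (0.226, 0.721 and 1.84% of nuclei, exact 95% binomial intervals 0.148 to 0.331, 0.508 to 0.993 and 1.36 to 2.43, counting error only) had all 14 erythroid markers and all 6 cell cycle markers raised, and was called erythroid-like. Its leading genes included Kel, Rhag and Mki67, and 19, 31 and 45 of its nuclei had 2 or more cell cycle genes. Red cell precursors that still divide have this pair of features. No cluster was named granulocyte-like.

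Haemoglobin was highest in the erythroid-like nuclei, at 4014 (adult), 3627 and 6505 CPM (aged). This was 1.84, 1.09 and 3.93 times the level in free RNA of the same library, a mean of 2.29 ± 1.47 (SD, n = 3 libraries) that was 1.46 without the second aged library and 3.86 in nuclei gated by their own marker UMIs. The median nucleus held 13.5, 21 and 13.5 haemoglobin UMIs, with a range of 0 to 80, 1 to 46 and 0 to 140. Haemoglobin UMIs were found in 24 of 26, 37 of 37 and 46 of 48 of these nuclei. Even so, the cluster held 2.30, 5.73 and 22.6% of all haemoglobin UMIs in nuclei, so most of the haemoglobin counted in nuclei was in other clusters.

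Alas2 marked the erythroid-like nuclei more sharply than haemoglobin did. It stood at 333, 399 and 664 CPM there, 35.6 ± 15.0 (SD, n = 3) times free RNA, a ratio that was 82.1 in gated nuclei and 61.3 with every nucleus thinned to 1000 UMIs. In every other class its mean was at most 19.2 CPM. A UMI of Alas2 was found in 13 of 26, 25 of 37 and 30 of 48 erythroid-like nuclei but in 2.09, 2.19 and 3.07% of neuron-like nuclei. The cluster held 16.8, 34.6 and 61.6% of all Alas2 UMIs in nuclei. Granulocyte members gave 0, 8 and 23 UMIs in these nuclei, of which 13 in the second aged library came from 1 nucleus.

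After the erythroid-like nuclei, haemoglobin was highest in a mixed cluster with myelinating Schwann cell (MSC) and neuron markers, led by mitochondrial and immunoglobulin transcripts, at 2449, 2409 and 2012 CPM. Endothelial-like nuclei followed at 678, 777 and 1518 CPM, where 1 nucleus of the second aged library gave 358 of the 675 UMIs. Mural-like, myeloid-like, B lymphocyte-like, T lymphocyte-like, MSC-like and fibroblast-like nuclei had means between 469 and 644 CPM. Satellite glial cell (SGC)-like nuclei stood at 266, 185 and 96.6 CPM and neuron-like nuclei, with the lowest mean, at 110, 110 and 44.7 CPM. These levels are of classes of unequal depth. Within the depth range given further on, neuron-like nuclei stood above SGC-like nuclei in both aged libraries. In the second aged library 1 neuron-like nucleus held 219 haemoglobin UMIs, and its part in that order was not tested. Along this order of 14 classes, 3 of 13 neighbouring means differed by more than the larger SD over libraries: erythroid-like from the mixed MSC and neuron cluster, that cluster from endothelial-like nuclei, and the mixed non-myelinating Schwann cell (NMSC) and fibroblast cluster from SGC-like nuclei, whose library ranges overlapped.

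**Figure D3:**
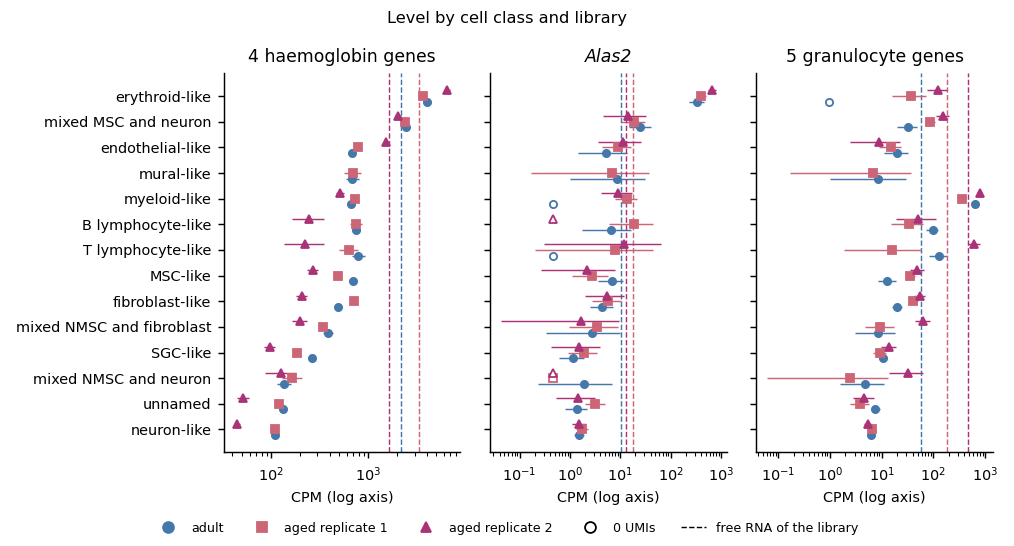
Level of the 4 haemoglobin genes, Alas2 and the 5 granulocyte genes (CPM, log axis) in each cell class, with a point and a 95% counting interval for each library, open symbols for sums without a UMI, and dashed lines at the level in free RNA of each library. Erythroid-like nuclei lie above the line of their library for haemoglobin (1.84, 1.09 and 3.93 times) and far above it for Alas2, and myeloid-like nuclei lie above it for the granulocyte genes.

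Neurons and satellite glia belong to neither blood lineage, and their haemoglobin UMIs are given as the level carried by most nuclei of this preparation. A haemoglobin UMI was found in 63.8, 64.0 and 42.4% of neuron-like nuclei (median 7465, 5333 and 7662 UMIs) and in 44.9, 58.8 and 42.7% of SGC-like nuclei (3069, 6940 and 7533 UMIs). Thinned to 1000 UMIs per nucleus the shares were 19.2, 21.6 and 9.20% in neuron-like and 20.8, 19.4 and 10.4% in SGC-like nuclei, against 80.8, 89.2 and 89.6% in erythroid-like nuclei. Both classes shared the low value of the second aged library, which also had the least haemoglobin in free RNA. The first aged library had the most in free RNA. Its thinned share was above the adult one in neuron-like nuclei but below it in SGC-like nuclei.

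Within neuron-like nuclei, haemoglobin UMIs went up far less than depth. When neuron-like nuclei of the adult library were ranked by UMIs and cut into 4 equal groups, the shallowest group (median 1893) had 1.10 haemoglobin UMIs per nucleus and the deepest (median 33280.5) had 2.42, so the level fell from 568 to 64.9 CPM. The first aged library went from 1.25 to 2.92 UMIs per nucleus and from 636 to 58.3 CPM. The second aged library went from 0.601 to 1.25 UMIs and from 289.7 to 19.1 CPM. Haemoglobin CPM in neuron-like nuclei thus moved with depth in each library, which bears on every comparison of CPM between classes or libraries of unequal depth.

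The ratio between the α-globin copies was highest in the adult library in free RNA, in all nuclei and in erythroid-like, neuron-like and SGC-like nuclei. Hba-a2 to Hba-a1 UMIs in free RNA was 4.27 (95% counting interval 4.05 to 4.51) for the adult library, against 2.57 (2.49 to 2.67) and 2.46 (2.36 to 2.57) for the aged ones. In neuron-like nuclei it was 3.86, 2.69 and 2.47, close to the free RNA of the same library. In erythroid-like nuclei it was lower, 2.59 (1.77 to 3.85), 1.67 (1.31 to 2.12) and 1.47 (1.23 to 1.77), and these intervals did not overlap those of free RNA. Hbb-bs to Hbb-bt was 4.70, 4.64 and 3.85 in free RNA and 3.27, 3.37 and 2.87 in erythroid-like nuclei. The ratio of β-globin to α-globin UMIs was 2.08, 1.48 and 1.33 in free RNA and 2.01, 1.54 and 1.37 in erythroid-like nuclei, where the 2 sources did not separate. These ratios rest on the uncertain split between near-identical copies, apart from that of β to α.

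**Figure D4:**
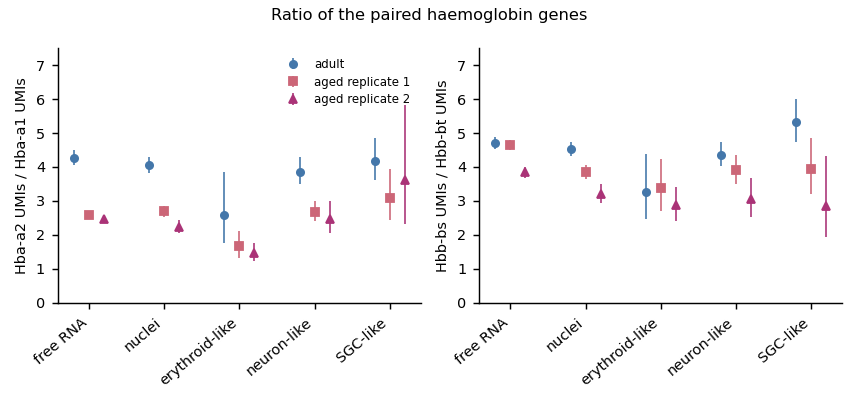
Ratios of UMIs within the paired haemoglobin genes (Hba-a2 to Hba-a1, and Hbb-bs to Hbb-bt) in free RNA, in all nuclei and in 3 named classes of each library, with 95% counting intervals. The adult points lie above the aged ones for Hba-a2 to Hba-a1, and erythroid-like nuclei lie below free RNA of their own library in both ratios.

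The granulocyte members were concentrated in myeloid-like nuclei, named from macrophage and monocyte markers such as C1qa, Csf1r and Mrc1. Their summed level there was 644 (adult), 363 and 821 CPM (aged), which is 11.0, 1.95 and 1.71 times free RNA of the same library. The mean of these ratios was 4.90, and it was 1.83 without the adult library and 0.913 where nuclei were gated by their own marker UMIs. That gate set apart only 3, 3 and 2 granulocyte-like nuclei, with 86, 134 and 46 granulocyte UMIs, and why the ratio fell was not tested. Myeloid-like nuclei were 1.75, 5.20 and 8.58% of nuclei and held 34.1, 45.7 and 62.3% of the granulocyte UMIs in nuclei. Neuron-like nuclei stood at 6.30, 6.44 and 5.55 CPM and SGC-like nuclei at 10.6, 9.15 and 14.0 CPM, with ranges that did not overlap each other. This is for nuclei pooled over unequal depth and was not read at matched depth. Neuron-like nuclei went from 11.0, 25.2 and 29.5 CPM in the shallowest of the 4 depth groups to 5.63, 4.37 and 2.26 in the deepest.

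Few myeloid-like nuclei carried this level. Only 20 of 202, 32 of 267 and 46 of 224 had any granulocyte UMI, the median was 0 in each library, and 10, 12 and 22 had 10 or more. Nuclei with 3 or more of the 14 other granulocyte genes numbered 13, 18 and 19, and they held 355 of 417, 436 of 485 and 504 of 811 granulocyte UMIs in the class (85.1, 89.9 and 62.1%). The remaining myeloid-like nuclei stood at 103, 41.6 and 345 CPM. Against S100a8, Ngp gave 1.27, 1.11 and 0.97 UMIs in myeloid-like nuclei but 0.43, 0.35 and 0.41 in free RNA, so the granule gene took a larger part in nuclei than outside them. A T lymphocyte-like level of 624 CPM in the second aged library came from 1 nucleus with 47 of 53 UMIs.

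Over 41 sums of a class in a library, the genes whose log2(CPM + 1) ran closest to that of the haemoglobin sum were Pabpc1 (Pearson r = 0.83), H3f3a (0.76), Gpx1 (0.75), Gps2 (0.75) and Dek (0.75), of 17117 genes compared. Closest to S100a8 plus S100a9 were Sh3bp2 (0.84), Ctsa (0.81), Chil3 (0.80), Yipf1 (0.79) and Slfn4 (0.79). Chil3 encodes a chitinase-like protein of myeloid cells and Pabpc1 the cytoplasmic poly(A)-binding protein. The sums share libraries and depth, and the values are a description.

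The adult and aged libraries were then compared by edgeR's quasi-likelihood test on library sums over all genes, with Benjamini-Hochberg adjustment at 0.05. The fit has 1 residual degree of freedom, takes the lone adult library to vary as the aged ones do, and read the same libraries from which the members were proposed. Its spread is pooled across genes, so a small p-value can stand beside aged libraries that differ widely for that gene. All log2 differences are aged over adult.

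In free RNA, 6 of the 10 members were higher in the aged libraries and none lower, where 17.3% of 19189 genes were called, 8.42% higher and 8.92% lower. All 5 granulocyte members rose: S100a9 by 2.85 (SE 0.51, adjusted p = 0.00725), Camp by 2.71 (SE 0.53, adjusted p = 0.0104), S100a8 by 2.39 (SE 0.43, adjusted p = 0.00761), Ngp by 2.26 (SE 0.52, adjusted p = 0.0198) and Ltf by 1.76 (SE 0.38, adjusted p = 0.0152). Of the erythroid members Hba-a1 rose by 1.17 (SE 0.28, adjusted p = 0.0237). The split of reads between Hba-a1 and Hba-a2 is uncertain, so this call does not speak for α-globin as a whole. Both copies were higher in the first aged than in the adult library. In the second, Hba-a1 was higher (205 against 135 CPM) and Hba-a2 lower (504 against 575 CPM). Hba-a2 (0.42, SE 0.29), Hbb-bs (0.03, SE 0.33), Hbb-bt (0.14, SE 0.26) and Alas2 (0.60, SE 0.24) did not pass, though Hba-a2 (0.45) and Alas2 (0.64) were called higher without a filter on low counts, where 4929 genes were called in all. DESeq2's Wald test called none of the 10 (4 at an unadjusted p under 0.05), and called 945 genes in all against 3326 by edgeR. Without the second aged library S100a9 stood 1.93 higher, Camp 1.86, S100a8 1.65, Ngp 1.34 and Ltf 1.17, and without the first 3.41, 3.24, 2.89, 2.81 and 2.18, values with no test. Hba-a1 stood 1.54 and 0.68 higher.

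In nuclei, 5 of the 10 members were called, all higher, where 12.5% of 23245 genes were called, 3.65% higher and 8.82% lower. These were S100a8 (1.13, SE 0.29, adjusted p = 0.00221), S100a9 (1.09, SE 0.25, adjusted p = 0.000425), Ngp (0.92, SE 0.31, adjusted p = 0.0269), Camp (0.98, SE 0.35, adjusted p = 0.0454) and Alas2 (0.95, SE 0.30, adjusted p = 0.0150). Ltf (−0.17, SE 0.29) and the haemoglobin genes (−0.45 to 0.55) did not pass. Without the erythroid-like cluster, left out after seeing the data, Alas2 stood at 0.25 and was not called, while Hbb-bs (−0.60) was called lower. With nuclei of more than 500 genes Hbb-bs (−0.75) and Hbb-bt (−0.58) were called lower beside the 5. Without every nucleus that had 3 or more erythroid or granulocyte markers, only S100a9 (0.91, higher) and Hbb-bs (−0.61, lower) were called. The calls of Alas2, Ngp and Camp were lost without a filter on low counts, and those of Alas2 and Camp in nuclei with more than 2000 genes. DESeq2's Wald test called none of the 10 (5 at an unadjusted p under 0.05) and 997 genes in all. Without the second aged library S100a8 stood 0.67 higher, S100a9 0.54, Ngp 0.45 and Camp 0.58, and without the first each of these stood at least 1.29 higher.

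The age difference in nuclei was smaller than that in free RNA for all 5 granulocyte members, as tested by the interaction of fraction and age with library as a block, in which 2.39% of 22191 genes were called, 1.44% with a larger and 0.951% with a smaller log2 difference in nuclei. The interaction was −1.89 for Ltf (SE 0.30, adjusted p = 1.02e-07), −1.64 for S100a9 (SE 0.27, adjusted p = 3.29e-07), −1.61 for Camp (SE 0.35, adjusted p = 0.000443), −1.22 for Ngp (SE 0.30, adjusted p = 0.00397) and −1.18 for S100a8 (SE 0.27, adjusted p = 0.00116). It was between −0.56 and −0.22 for the haemoglobin genes and 0.35 for Alas2, none of them called. Without the second aged library the interaction stood at −1.89 for Ltf, −1.38 for S100a9, −1.26 for Camp, −0.88 for Ngp and −0.97 for S100a8, and without the first at −1.84, −1.85, −1.87, −1.46 and −1.33, values with no test. DESeq2's Wald test called 2 of the 10, S100a9 and Ltf.

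**Figure D5:**
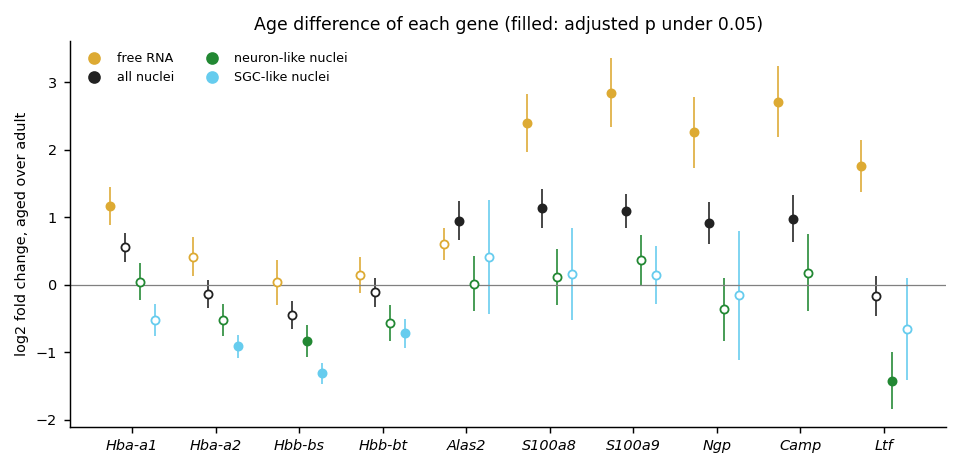
Log2 difference, aged over adult, of each of the 10 transcripts in free RNA, nuclei, neuron-like nuclei and SGC-like nuclei, with a standard error derived from the F statistic of edgeR's test and filled points where the adjusted p is under 0.05. Granulocyte genes lie highest in free RNA and lower in nuclei, and the haemoglobin genes lie below 0 in SGC-like nuclei.

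In neuron-like nuclei, 2 of the 10 members were called, both lower, where 7.55% of 21371 genes were called, 1.38% higher and 6.17% lower. Hbb-bs fell by 0.84 (SE 0.24, adjusted p = 0.00975) from 55.4 CPM to 49.2 and 17.7 CPM, and Ltf fell by 1.42 (SE 0.42, adjusted p = 0.0153) from 1.88 CPM to 0.874 and 0.621 CPM. The Hbb-bs difference rested mostly on the second aged library, being −0.32 without it and −1.74 without the first. Among neuron-like nuclei from 3000 to under 10000 UMIs, where the 4 haemoglobin genes stood at 246, 269 and 239 CPM, edgeR called none of the 7 members tested (3 at an unadjusted p under 0.05). In the second aged library 1 neuron-like nucleus held 219 haemoglobin UMIs, and what part it had in the level within this depth range was not tested. No member of the 10 was called by DESeq2's Wald test (0 at an unadjusted p under 0.05), and edgeR called none of the 6 tested in nuclei gated by their own marker UMIs (2 at an unadjusted p under 0.05).

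In SGC-like nuclei, 3 of the 9 members tested were called, all lower, where 24.0% of 15747 genes were called, 13.2% higher and 10.9% lower. Hbb-bs fell by 1.31 (SE 0.15, adjusted p = 7.21e-16) from 144 CPM to 88.9 and 37.9 CPM, Hba-a2 fell by 0.91 (SE 0.17, adjusted p = 1.33e-06) from 77.0 CPM to 55.5 and 35.6 CPM, and Hbb-bt fell by 0.72 (SE 0.22, adjusted p = 0.00599) from 27.0 CPM to 22.6 and 13.3 CPM. Haemoglobin UMIs per SGC-like nucleus were 0.886, 1.66 and 0.914, at the median depths given above. Among SGC-like nuclei from 3000 to under 10000 UMIs the 4 genes stood at 250, 194 and 105 CPM, and edgeR still called 2 of the 6 members tested, Hbb-bs (−1.11) and Hba-a2 (−0.63), while Hbb-bt (−0.41) was not called. Without a filter on low counts the call of Hbb-bt was lost, and in gated nuclei Hbb-bs alone was called of the 4 tested. Without the second aged library the differences of Hbb-bs, Hba-a2 and Hbb-bt were −0.89, −0.67 and −0.46, and without the first −2.11, −1.30 and −1.21. DESeq2's Wald test called 1 of the 9, Hba-a2. Camp had too few UMIs to be tested there.

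Other genes of both lineages were read from lists chosen with earlier results known, and their counts stand beside 8.42% of all genes called higher in free RNA, 3.65% higher and 8.82% lower in nuclei, and 2.39% called in the interaction, 0.951% lower. In free RNA, 6 of 14 erythroid genes were higher and none lower (median 1.67, against −0.01 over all genes), among them Rhd, the Rhesus blood group protein (1.67), while Kel (1.51), Tfr2 (−0.20) and Hemgn (−0.47) did not pass. Of 14 granulocyte genes 8 were higher and none lower (median 1.87), including the granule peroxidase Mpo (3.38), the deiminase Padi4 (2.21), the cytokine receptor Csf3r (1.45) and the gelatinase Mmp9 (1.43). Of 13 heme synthesis and iron genes 3 were higher (median 0.47), among them Urod and Uros, while Tfrc (0.54), Fech (0.26), Cpox (0.06) and Abcb10 (0.31) did not pass.

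In nuclei, 9 of the 14 erythroid genes were higher and 1 lower (median 1.58, against 0.01 over all genes). Kel rose by 2.11, and Hemgn fell by 1.09. Erythroid-like nuclei held 14.7% of the Hemgn UMIs in nuclei. Of 13 granulocyte genes tested 2 were higher (Mpo, 1.66, and Fcnb) and 1 lower (Cxcr2), with a median of 0.65, and Csf3r (0.56), Padi4 (0.32) and Mmp9 (−0.44) did not pass. Of 13 heme synthesis and iron genes 1 was called, Cpox, a late enzyme of the pathway (−0.76), a share close to that of all genes called lower. The interaction of fraction and age was called for 3 of 14 granulocyte genes, all lower (Cxcr2, Mmp9 at −1.84 and Padi4 at −1.81), for 1 of 13 heme synthesis and iron genes (Cpox, −0.81) and for none of 14 erythroid genes (3 at an unadjusted p under 0.05). The last 2 counts are too small to set apart from the share of all genes called.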

How the data were processed

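Nuclei from L3 to L5 DRG of 1 adult and 2 aged libraries were sequenced by PIP-seq. The authors deposited unnormalized UMI counts for each gene in every barcode, without a filter on nuclei, from Pipseeker and mm10 (the build named in the submitters' processing notes). The annotation used by the authors is not given in the sources used here, and 32098 of 32227 gene identifiers (99.6%) were found in GENCODE M21, from which positions were read.

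The members and all gene lists were chosen with earlier results of these data known. All 10 members are named, beside counts over the lists with up to 4 examples each, those with the most UMIs in nuclei, the other genes called where a list had few calls, and the 5 genes most alike in pattern (among genes with 200 or more UMIs in nuclei, over classes of 20 or more nuclei). Nuclei (more than 1000 genes) were integrated and clustered with Seurat 5.3.0 at resolution 0.8 on 2990 variable genes after leaving out the members. A cluster was named where at least 3 markers of a class were raised by 1 on the log2 scale over the mean of the other clusters and found in 10% of its nuclei. SGC-like clusters also had to have Fabp7, a rule added after the clusters were seen. No doublet caller was run, and clusters with markers of several classes were kept apart as mixed. UMI counts were summed per library and tested with edgeR 4.0.16 (TMM, filterByExpr, prior count 0.125) in R 4.3.3, and DESeq2 1.42.0 was an alternative. The test was run on simulated data for nuclei and for the interaction. All libraries were drawn with the same spread there, so this cannot show whether the adult library varies as the aged ones do. Intervals cover counting error only. Each SE is the absolute log2 difference divided by the square root of the F statistic of edgeR's test. Some genes of the lists are not reported here by name.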

Additional observations from a re-analysis of the deposited data

Results flagged for a closer look

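Age differences of the granulocyte transcripts in nuclei differed from those in free RNA of the same libraries, by a test of the difference itself: edgeR's interaction of fraction and age, with library as a block, was −1.18 for S100a8, −1.64 for S100a9, −1.22 for Ngp, −1.61 for Camp and −1.89 for Ltf on the log2 scale. Without the second aged library these stood at −0.97, −1.38, −0.88, −1.26 and −1.89. DESeq2's Wald test called S100a9 and Ltf of these. The level in nuclei divided by that in free RNA was, for the 5 genes together, 0.232 (adult), 0.102 and 0.0721 (aged), and the part that barcode depth or the number of granulocyte nuclei had in this was not tested. Groups of 1 and 2 libraries are too small for a test of single libraries that stand apart.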

How the results depend on the processing

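No paired analysis was possible because the adult group has 1 library, so the groups share fewer than 2 replicate numbers. DESeq2's Wald test called 0 members in free RNA, 0 in nuclei, 0 in neuron-like and 1 in SGC-like nuclei and 2 in the interaction, against 6, 5, 2, 3 and 5 by edgeR, and 4, 5, 0, 1 and 5 members had an unadjusted p under 0.05 in it. It called 945, 997, 443, 945 and 95 genes in all, against 3326, 2899, 1613, 3787 and 531. In nuclei the members called were 5 in the full comparison, 2 without a filter on low counts, 3 with more than 2000 genes, 2 without nuclei with 3 or more erythroid or granulocyte markers, 5 without the erythroid-like cluster (Hbb-bs in place of Alas2) and 7 with more than 500 genes (with Hbb-bs and Hbb-bt), beside 2899, 1988, 2804, 2903, 2933 and 3016 genes in all. Nuclei gated by their own marker UMIs gave 0 calls of 6 members tested in neuron-like and 1 of 4 in SGC-like nuclei (194 and 398 genes in all), and nuclei from 3000 to under 10000 UMIs, chosen after seeing the data, gave 0 of 7 in neuron-like nuclei (2 at an unadjusted p under 0.05 when gated and 3 within this depth) with 314 genes in all, and 2 of 6 in SGC-like nuclei with 990 genes in all. SGC-like nuclei without a filter gave 2 of 10 members and 1937 genes, free RNA without a filter 8 of 10 members and 4929 genes, and free RNA of 10 to 49 UMIs 994 genes. Directions turned for Hbb-bs in free RNA of 50 to 99 UMIs (−0.025), Ltf in nuclei with more than 500 genes (0.080), Hba-a2 (0.17) and Hbb-bt (0.099) in gated neuron-like nuclei, Hba-a2 (0.16) and Ngp (1.41) in neuron-like nuclei of that depth range, and the Alas2 interaction without the erythroid-like cluster (−0.36), also chosen after seeing the data, and the cause was not tested. None of these was called. Of 338 member values under alternatives 318 kept their direction, and of the 20 that turned, the other 13 were values without an aged library, all of members not called in the full comparison.

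Relative to free RNA, erythroid-like haemoglobin (2.29) was 3.86 when gated and 1.46 to 2.89 without each library in turn. Erythroid-like Alas2 (35.6) was 82.1 gated, 61.3 thinned to 1000 UMIs and 27.4 to 42.0 without each library. Neuron-like haemoglobin (0.0369) was 0.0551 at clustering resolution 0.4, 0.127 gated, 0.107 thinned and 0.0301 to 0.0418 without each library. Neuron-like granulocyte genes (0.0514) were 0.102 gated and 0.0231 to 0.0713 without each library. Myeloid-like granulocyte genes (4.90) were 0.913 gated and 1.83 to 6.49 without each library.

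With 1 adult library and 1 residual degree of freedom, every age difference here compares these libraries. Depth limits Camp in SGC-like nuclei (13, 1 and 1 UMIs), and members at low counts in other classes.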

Other observations

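Of 6 other haemoglobin genes counted, Hbb-bh1 had 60 UMIs in nuclei over the 3 libraries, Hbq1b had 15 and the rest had 3 or fewer. Hbb-bh1, a β-like globin of early embryonic red cells, had 0 UMIs in adult nuclei and 35 and 25 in nuclei of the aged libraries. Against a floor of 3 counts in the adult library this was at least 18.9-fold higher in both. These UMIs were spread over 35 and 24 nuclei with at most 2 in any nucleus, 14 and 12 of them in neuron-like nuclei and 0 in erythroid-like nuclei, so they did not follow Hba-a1, Hba-a2, Hbb-bs or Hbb-bt across classes. Reads of a near-identical or overlapping locus cannot be told apart from this gene here.

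Of genes of early blood progenitors, edgeR called 0 of 5 tested in free RNA (2 at an unadjusted p under 0.05), where 17.3% of all genes were called, and 0 of 8 in nuclei (1 at an unadjusted p under 0.05), where 12.5% were called, counts too small to set apart from these shares. Kit, the stem cell factor receptor, stood at 0.08 in free RNA and −0.35 in nuclei on the log2 scale, Flt3 at −0.23 and −0.26, Cd34 at 0.37 and 0.43 and Myb at 0.72 and 0.27. In SGC-like nuclei 4 were tested, where 24.0% of all genes were called, 13.2% higher and 10.9% lower, and Cd34 (1.20) was higher and Kit (−0.37) lower.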
